A study of Mus musculus with 2 samples.

Results

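The genes described here are the coactivators Ppargc1a and Ppargc1b, the estrogen-related receptors Esrra, Esrrb and Esrrg, and the peroxisome proliferator-activated receptors Ppara, Ppard and Pparg. They were taken by gene symbol, as 8 of the 27998 genes of the count tables, and none was chosen by its level. Counts are of UMIs, the tags that mark single RNA molecules. Each nucleus was then placed by its main myosin, the 1 of Myh7, Myh2, Myh1 and Myh4 that gave at least 60% of at least 3 myosin UMIs, and levels were read for each class and library.

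The study deleted Net39 (Plpp7), which encodes a protein of the muscle nuclear envelope, in adult mice and profiled single nuclei of the gastrocnemius-plantaris (GP) muscle. The Ctrl library came from Net39 fl/fl mice without Cre and the cKO library from HSACreERT2;Net39 fl/fl mice, both of B6C3F1 background, 5 months old and 3 months after tamoxifen. HSA-CreERT2 is driven by the promoter of skeletal muscle actin and, per the methods, is active in muscle fibres and not in satellite cells, so nuclei outside the fibres should keep the gene in both libraries. Each library pooled 3 GP muscles and no nucleus can be assigned to an animal, although the titles name 1 mouse for each.

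PGC-1α and PGC-1β, the products of Ppargc1a and Ppargc1b, bind no DNA themselves but are recruited by nuclear receptors and raise transcription of mitochondrial and fatty acid oxidation genes. The ERRs are orphan receptors that bind as monomers or dimers to sites built around AGGTCA and control oxidative phosphorylation genes, and the PPARs pair with RXR and respond to fatty acids. In skeletal muscle this circuit is known for its link to slow and oxidative fibres, whereas PPARγ is the master regulator of adipocytes.

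With 1 library in each group no test between groups was possible. All intervals are exact 95% intervals for counting error and hold nothing of the variation among mice, and a gene is said to be past 1.5-fold by size alone. Levels are UMIs of a gene scaled to the total UMIs of the same nuclei (CPM) and are compared within a gene, since they are not scaled by length.

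The Ctrl library held 3863 barcodes and the cKO library 3994, with 10410316 and 8446070 UMIs. After filters 3526 and 3595 nuclei were used, with medians of 2040.5 and 1611 UMIs, and 4 of their barcodes occurred in both libraries. The nuclear RNA Malat1 accounted for 25.6% (Ctrl) and 30.7% (cKO) of UMIs. Of 11 clusters, 4 carried markers of cells outside the fibres and the other 7 gave 2986 Ctrl and 3295 cKO myonuclei. Clusters 3 and 6 met no marker list and stayed unnamed, and cluster 6 was mostly of Ctrl nuclei (188 against 23). The type I-like cluster 2, for which all 11 type I markers were detected, was mostly of cKO nuclei (949 against 193). Plpp7 itself had 51.9 CPM in Ctrl myonuclei and 41.8 in cKO myonuclei, and 55.0 and 61.9 CPM in their Myh4 nuclei (log2 ratio 0.17, -0.10 to 0.44). In cluster 2 it was lower in cKO (45.8 and 10.6 CPM, -2.11, -2.98 to -1.25), as in nuclei with no main myosin (-1.13, -2.09 to -0.20). These values do not check the labels because the deletion removes the first exon and the assay reads 3′ ends.

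The main-myosin classes took different shares of the libraries. Nuclei with Myh4, the myosin of fast glycolytic IIb fibres, made 64.0% of Ctrl and 43.3% of cKO myonuclei (1910 and 1427 nuclei). Nuclei with Myh1 (IIx) made 10.1% and 11.6% (302 and 381), and nuclei with Myh2, of fast oxidative IIa fibres, made 5.56% and 9.86% (166 and 325). Slow Myh7 nuclei numbered 19 in Ctrl and 275 in cKO, or 0.636% and 8.35%. A further 131 and 208 nuclei had enough myosin UMIs but no main myosin, and 458 and 679 had too few. The Ctrl Myh7 class thus rests on 19 nuclei, and no members are counted in it.

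The 250 bases before each of 13 RefSeq start sites, of 7 of the 8 genes on GRCm38.p6, were searched on both strands. The gene of PGC-1β was left out of this search. The cyclic AMP response element TGACGTCA was in 0 of the 13 windows and in 1.55% of all 32851 windows listed, and its shorter core CGTCA, which the full element contains, was in 3 windows and in 17.8% of all. The ERR site TNAAGGTCA was in 0 windows and in 1.14% of all, and AAGGTCA, which it contains, in 0 and in 4.08%. The receptor core AGGTCA, contained in both, was in 2 windows, both of Pparg, and in 14.0% of all. The MEF2 motif, searched with its alternative letters, was in 1 window, of Esrrg, and in 2.92% of all.
The following stretches are shown because they hold these matches in genes whose levels differed between myosin classes. Capitals mark CGTCA or its reverse complement in Ppargc1a and Esrrb and the MEF2 match in Esrrg. Each is the longest stretch of its window without a base of an annotated exon (GENCODE vM21), written 5′ to 3′ on the strand of its gene. That of Esrrg lies after an annotated Esrrg exon within the window, and the 35 bases before this exon are not shown.
Ppargc1a, chr5:51567727-51567975, minus strand: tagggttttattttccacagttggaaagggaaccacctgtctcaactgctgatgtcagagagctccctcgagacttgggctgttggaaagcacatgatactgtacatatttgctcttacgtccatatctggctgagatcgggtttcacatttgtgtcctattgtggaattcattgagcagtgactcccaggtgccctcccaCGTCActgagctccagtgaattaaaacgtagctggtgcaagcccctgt
Esrrb, chr12:86360867-86361116, plus strand: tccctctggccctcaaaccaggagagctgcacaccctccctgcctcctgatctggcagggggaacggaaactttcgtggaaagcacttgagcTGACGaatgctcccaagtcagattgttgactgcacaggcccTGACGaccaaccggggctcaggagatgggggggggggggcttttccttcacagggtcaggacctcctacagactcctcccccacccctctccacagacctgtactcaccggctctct
Esrrg, chr1:187608900-187609005, plus strand: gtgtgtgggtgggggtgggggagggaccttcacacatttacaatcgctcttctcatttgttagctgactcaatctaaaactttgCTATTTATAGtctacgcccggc
A match is a description of these letters only, and no readout of binding at these windows was analysed here.

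Over all myonuclei, Esrrg, Ppara and Esrrb were past 1.5-fold higher in cKO than in Ctrl. The 8 genes had a median log2 ratio of cKO over Ctrl of 0.41, beside -0.08 for all 11467 genes with at least 20 UMIs. These 3 of 8 stand beside 22.6% of all genes past 1.5-fold in either direction. No member was past 1.5-fold lower. When the cKO levels of each class were weighted by the classes' shares of Ctrl UMIs, 0 of 8 members were past 1.5-fold. The signs of Ppargc1a, Esrrb and the sparse Pparg then turned. All 8 members had UMIs in both libraries and at least 20 in all myonuclei, and 7 of them, without Pparg, also did within the Myh4, Myh1 and Myh2 classes.

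**Figure D1:**
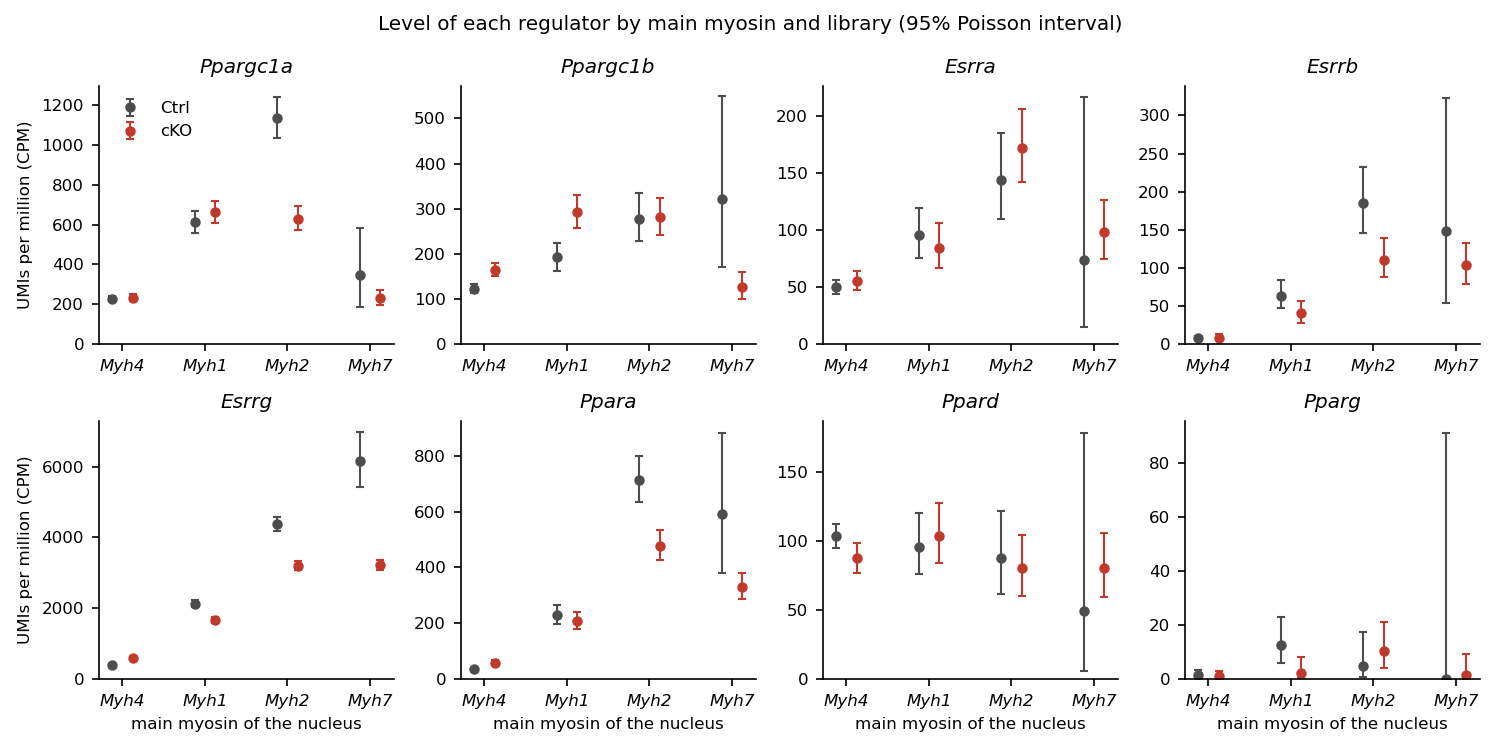
Level (CPM) of each regulator in nuclei grouped by main myosin, with Ctrl in grey and cKO in red; points are sums over the nuclei of a class and bars are 95% Poisson intervals. Esrrg ran from 405 CPM in Myh4 to 6153 CPM in Myh7 nuclei of Ctrl, while Ppard lay between 49.4 and 104 CPM in every class.

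Ppargc1a (chr5:51454250-51567726, minus strand) encodes PGC-1α, the inducible coactivator of mitochondrial biogenesis. In Ctrl it was at 228 CPM (215 to 241) in Myh4, 611 CPM (558 to 668) in Myh1, 1134 CPM (1034 to 1242) in Myh2 and 346 CPM (189 to 580) in Myh7 nuclei. In cKO it was at 233 CPM (216 to 251), 662 CPM (610 to 718), 630 CPM (572 to 692) and 233 CPM (196 to 274) in the same order. The Myh2 class was thus the highest of Ctrl, whereas in cKO the Myh2 and Myh1 classes had overlapping intervals, as did Myh7 and Myh4. All Ctrl myonuclei had 340 CPM and all cKO myonuclei 378 CPM (log2 ratio 0.15, 0.07 to 0.23).

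Within classes, Ppargc1a was lower in cKO in Myh2 nuclei, with a log2 ratio of -0.85 (-1.04 to -0.66), and close to Ctrl in Myh4 (0.03, -0.11 to 0.17) and Myh1 nuclei (0.12, -0.06 to 0.29). The Myh2 level was 4.97-fold (4.46 to 5.54) the Myh4 level in Ctrl and 2.71-fold (2.39 to 3.06) in cKO. The Myh7 level was 1.00-fold (0.829 to 1.20) the Myh4 level in cKO. Slow Myh7 nuclei were at 0.305-fold (0.165 to 0.517) and 0.369-fold (0.303 to 0.448) the Myh2 level in Ctrl and cKO.

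The clusters, which were built with the measured genes and so give a description only, divided Ppargc1a further. Cluster 1, led by Myh2 and Myh1, had 785 CPM among Ctrl nuclei and 1035 among cKO nuclei (log2 ratio 0.40, 0.29 to 0.51). The type I-like cluster 2 had 364 and 185 CPM (-0.98, -1.23 to -0.73). Within the Myh1 class, nuclei of cluster 1 were at 722 and 1088 CPM (0.59, 0.41 to 0.77). Those of cluster 2 were at 192 and 112 CPM, with an interval that held 0 (-0.78, -1.57 to 0.05). Both directions stood within the Myh4 class. Its nuclei gave 631 and 956 CPM in cluster 1 (0.60, 0.26 to 0.94) and 287 and 130 CPM in cluster 2 (-1.15, -1.86 to -0.45). In cluster 0 they were at 215 CPM in both libraries. Myh2 nuclei of cluster 1 were at 1181 and 930 CPM (-0.35, -0.55 to -0.14). Cluster 1 held 86.1% of the Myh2 nuclei of Ctrl and 69.2% of those of cKO, and the part of this placement in the lower Ppargc1a of the Myh2 class was not tested. Atf3, a stress-induced transcription factor, was higher in cKO over all myonuclei (18.3 and 79.99 CPM, log2 ratio 2.13, 1.86 to 2.40) and had 0 UMIs in the 19 Ctrl and 78 UMIs in the 275 cKO Myh7 nuclei. It was higher in cKO in cluster 1 (10.8 and 80.4 CPM) and lower in cluster 2 (205 and 163 CPM, log2 ratio -0.33, -0.64 to -0.02). Ppargc1a was at 737 CPM in the 53 Ctrl and 351 CPM in the 221 cKO myonuclei with an Atf3 UMI, and at 331 and 381 CPM in those without. The part of Atf3 was not tested.

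Ppargc1b, on chromosome 18, encodes PGC-1β, a coactivator related to PGC-1α. Its level over all myonuclei was 144 CPM for Ctrl and 196 for cKO (log2 ratio 0.44, 0.33 to 0.56). By class it was at 123, 192, 278 and 321 CPM (171 to 549) in Myh4, Myh1, Myh2 and Myh7 nuclei of Ctrl and at 165, 293, 281 and 128 CPM in those of cKO. It was higher in cKO in Myh4 (0.43, 0.25 to 0.60) and Myh1 nuclei (0.61, 0.31 to 0.90), near Ctrl in Myh2 (0.01, -0.33 to 0.36), and lower in Myh7 nuclei (-1.33, -2.19 to -0.36). The last value rests on 13 UMIs in Ctrl, and it was 0.34 when the main myosin was read after thinning each nucleus to 500 UMIs, which left 5 Ctrl nuclei in the class. In cKO, Myh7 nuclei were at 0.775-fold (0.602 to 0.986) the Myh4 level, the lowest of the 4 classes. Ppargc1b thus had the Myh1 and Myh2 classes at the top and the slow class at the bottom in cKO.

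Esrrg (chr1:187608791-188214885, plus strand) encodes ERRγ, the receptor most tied to slow oxidative fibres, and had 7531 UMIs in Ctrl and 11147 in cKO myonuclei. Its level over all myonuclei was 959 CPM (937 to 981) for Ctrl and 1651 CPM (1621 to 1682) for cKO (log2 ratio 0.78, 0.74 to 0.83). In Ctrl the level rose from 405 CPM (388 to 422) in Myh4 to 2134 CPM (2034 to 2238) in Myh1, 4381 CPM (4181 to 4589) in Myh2 and 6153 CPM (5412 to 6966) in Myh7 nuclei. In cKO the classes were at 605 CPM (577 to 634), 1665 CPM (1581 to 1752), 3204 CPM (3071 to 3341) and 3229 CPM (3088 to 3375). The intervals of the 4 Ctrl classes did not overlap, while those of Myh2 and Myh7 nuclei of cKO did.

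The range of Esrrg between classes was narrower in cKO. Myh2 nuclei were at 10.8-fold (10.2 to 11.5) the Myh4 level in Ctrl and 5.30-fold (4.97 to 5.64) in cKO, and Myh7 nuclei at 15.2-fold (13.3 to 17.3) and 5.34-fold (5.00 to 5.70). Myh4 nuclei were higher in cKO (log2 ratio 0.58, 0.49 to 0.67), and Myh1 (-0.36, -0.46 to -0.26), Myh2 (-0.45, -0.54 to -0.36) and Myh7 nuclei (-0.93, -1.12 to -0.73) were lower. With the main myosin read after thinning, the Myh7 ratio of Esrrg was 0.10. The higher level of Myh4 nuclei held in clusters 0 (0.53, 0.40 to 0.65), 2 (0.58, 0.31 to 0.86) and 3 (0.57, 0.24 to 0.90), and was 0.10 (-0.14 to 0.34) in cluster 1. The Myh1 class went both ways, with -0.35 (-0.47 to -0.23) in cluster 1 and 0.41 (0.13 to 0.69) in cluster 2. Cluster 1 held 81.8% of the Myh1 nuclei of Ctrl and 64.3% of those of cKO. Myh7 UMIs in Myh4 nuclei also differed, with 6.71 CPM for Ctrl and 42.2 for cKO. Their part in the difference was not tested.

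After each nucleus was thinned to 500 UMIs, an Esrrg UMI was found in 14.3% (12.8 to 16) of Ctrl and 21.4% (19.3 to 23.7) of cKO Myh4 nuclei, and in 82.5% and 73.5% of Myh2 nuclei. Without thinning the shares of Myh4 nuclei were 37.7% and 43.8%, at medians of 2313 and 1658 UMIs. In the FAP-like cluster, of fibroblast-like cells outside the fibres, the thinned shares were 6.88% (4.36 to 10.2) and 13.9% (8.82 to 20.5). Its medians before thinning were 1315.5 and 1326 UMIs. Its Esrrg level was 336 and 434 CPM (log2 ratio 0.37, 0.03 to 0.70), with an interval that held that of Myh4 nuclei (0.49 to 0.67). In the endothelial-like cluster they were 12.4% (7.81 to 18.3) and 34.7% (26.4 to 43.7), and its Esrrg level was 466 and 1176 CPM (log2 ratio 1.33, 1.03 to 1.64). Over all nuclei outside the fibres the Esrrg ratio was 0.95 (0.73 to 1.16), above the 0.58 of Myh4 nuclei. The level and share thus differed between the libraries in these nuclei too, and the part of free RNA in the Myh4 class was not tested. The antisense neighbour Gm36388 had 267 UMIs.

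Esrrb (chr12:86361117-86521628, plus strand), best known from pluripotent cells, was the sparsest ERR gene, with 221 and 300 UMIs in myonuclei. Ctrl myonuclei had 28.1 CPM and cKO myonuclei 44.4 (log2 ratio 0.66, 0.40 to 0.92). It was at 8.38 and 8.84 CPM in Myh4, 63.6 and 40.7 CPM in Myh1, 185 and 111 CPM in Myh2, and 148 (54.4 to 323) and 103 CPM in Myh7 nuclei of Ctrl and cKO. Myh2 nuclei were at 22.1-fold (15.1 to 32.7) the Myh4 level in Ctrl and 12.6-fold (7.95 to 20.4) in cKO. Myh2 nuclei were lower in cKO (-0.74, -1.22 to -0.26), as were Myh1 nuclei (-0.65, -1.30 to -0.0012), while the intervals of Myh4 and Myh7 nuclei held 0. In cluster 1, which held most Myh1 nuclei of both libraries, the Myh1 ratio was -0.09 (-0.79 to 0.61), and in cluster 2 it rested on 7 and 4 UMIs (-2.23, -4.45 to -0.25). Nuclei with too few myosin UMIs were higher (1.05, 0.24 to 1.92). Thus Esrrb was higher over all cKO myonuclei although no class with a main myosin was clearly higher.

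Esrra (chr19:6910977-6921813, minus strand) encodes ERRα, a direct partner of PGC-1α. Ctrl myonuclei had 61.7 CPM and cKO myonuclei 79.8 (log2 ratio 0.37, 0.19 to 0.55). Its classes were at 50.3, 96.0, 144 and 74.1 CPM (15.3 to 217) in Myh4, Myh1, Myh2 and Myh7 nuclei of Ctrl and at 55.4, 84.8, 172 and 98.3 CPM in those of cKO. Within all 4 classes the interval of the ratio held 0, and the Myh2 level was 2.86-fold (2.12 to 3.8) and 3.11-fold (2.43 to 3.97) the Myh4 level. Within cluster 1 it was higher in cKO in Myh2 nuclei (log2 ratio 0.53, 0.02 to 1.06) and, on 12 and 16 UMIs, in Myh4 nuclei (1.47, 0.30 to 2.68). Trmt112, on the opposite strand and overlapping Esrra, had 17 UMIs.

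Ppara (chr15:85734983-85802819, plus strand) encodes PPARα, the receptor of the fasting response and of fatty acid oxidation. Ctrl myonuclei had 117 CPM (110 to 125) and cKO myonuclei 195 CPM (185 to 206; log2 ratio 0.74, 0.62 to 0.86). Its classes were at 36.0, 230, 712 and 593 CPM (380 to 882) in Myh4, Myh1, Myh2 and Myh7 nuclei of Ctrl and at 58.2, 209, 478 and 331 CPM in those of cKO. As for Esrrg, Myh4 nuclei were higher in cKO (0.69, 0.39 to 1.00), and Myh2 (-0.58, -0.81 to -0.34) and Myh7 nuclei (-0.84, -1.46 to -0.17) were lower. Myh2 nuclei were at 19.8-fold (16.5 to 23.9) the Myh4 level in Ctrl and 8.22-fold (6.81 to 9.95) in cKO. Outside the fibres Ppara was at 45.5 and 117 CPM (1.36, 0.79 to 1.95), levels above those of Myh4 nuclei, and the part of free RNA was not tested. Within Myh4 nuclei the ratio was 0.26 (-0.19 to 0.70) in cluster 0, which held most of them, and 0.98 (0.31 to 1.65) and 1.95 (0.77 to 3.35) in clusters 1 and 2. When the main myosin was read after thinning to 500 UMIs, the Myh4 ratio of Ppara was 0.08 and the Myh7 ratio 0.22.

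Ppard (chr17:28232700-28301474, plus strand) encodes PPARδ, the PPAR linked to endurance training. A gradient over the myosins was not resolved, with levels of 104, 96.0, 87.8 and 49.4 CPM (5.98 to 179) in Myh4, Myh1, Myh2 and Myh7 nuclei of Ctrl and 87.4, 104, 80.4 and 80.3 CPM in those of cKO. The Ctrl value of Myh7 nuclei was 2 UMIs. Over all myonuclei it was at 101 and 89.5 CPM (log2 ratio -0.18, -0.33 to -0.02), the only member that was lower in cKO. Myh4 nuclei gave -0.24 (-0.46 to -0.03), with 0.03 (-0.23 to 0.30) in cluster 0, which held most of them, and -0.89 (-1.55 to -0.27) in cluster 3. Pparg (chr6:115360951-115490399, plus strand) had 28 UMIs in Ctrl and 26 in cKO myonuclei, or 3.56 and 3.85 CPM (0.11, -0.72 to 0.93), and was not detectable as different at this depth.

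Across the classes, 6 of the 7 members with enough UMIs were past 1.5-fold higher in Myh2 than in Myh4 nuclei in Ctrl and 6 of 7 in cKO, all but Ppard. Over all genes 47.8% in Ctrl and 42.9% in cKO were past 1.5-fold in that comparison in either direction. In cKO, 4 of 7 members were past 1.5-fold in Myh7 against Myh4 nuclei (Esrra, Esrrb, Esrrg and Ppara), beside 43.9% of all genes. Between libraries, 2 of 7 were past 1.5-fold in Myh2 nuclei (Ppargc1a and Esrrb, both lower in cKO, background 29.4%). In Myh2 nuclei of cluster 1, which held most of them, Ppargc1a was within 1.5-fold (-0.35). In Myh1 nuclei 2 of 7 were (Ppargc1b higher and Esrrb lower; background 26%), although Esrrb was within 1.5-fold in cluster 1. In Myh4 nuclei 1 of 7 was (Ppara higher, background 21.1%), with Esrrg just inside the limit at 0.58. Ppara was within 1.5-fold in Myh4 nuclei of cluster 0 (0.26) and with the main myosin read after thinning. These between-library counts are close to the background shares.

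**Figure D2:**
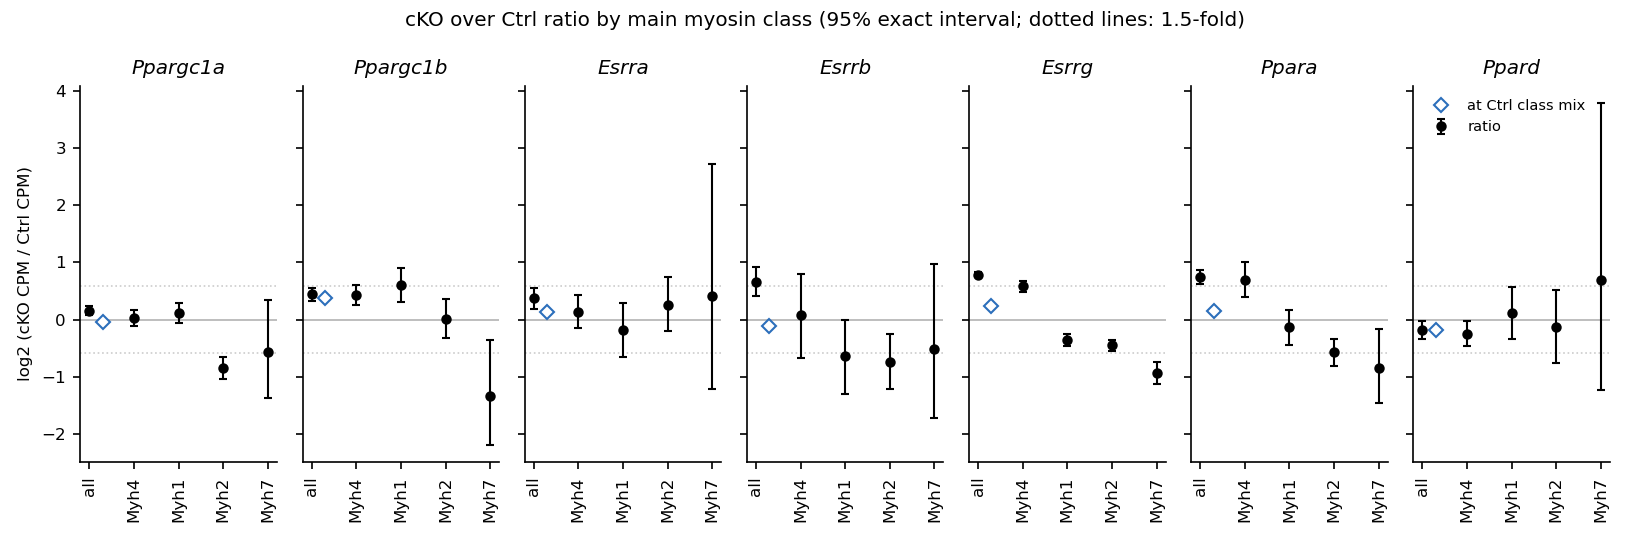
Log2 ratio of cKO over Ctrl (y axis) for 7 regulators over all myonuclei and in each main-myosin class (x axis), with 95% exact intervals; open diamonds give the ratio over all myonuclei at the Ctrl mix of classes and dotted lines mark 1.5-fold. For Esrrg and Ppara the Myh4 point lies above 0 and the Myh2 and Myh7 points below it, and the diamonds lie nearer 0 than the ratios over all myonuclei, except for Ppard where they coincide.

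Each difference between the libraries was divided between the shares of the classes, mixed and unassigned nuclei included, and the levels within them. Each part was weighted by the mean of the 2 libraries. The shares used here are of UMIs, with 68.3% of Ctrl and 43.5% of cKO myonuclear UMIs in Myh4 nuclei. For Esrrg the class shares made 669 CPM of a difference of 692 CPM. For Ppara they made 82.6 CPM of 78.2 CPM, and for Esrrb 21.5 CPM of 16.3 CPM, so that levels within classes gave -4.35 and -5.21 CPM. The part from levels depends on these weights, since with the Ctrl shares alone Ppara was at 129 CPM in cKO against 117 in Ctrl, and Esrrg at 1126 against 959. For Ppargc1a the shares gave 64.0 CPM and the levels -26.0 CPM. Only for Ppargc1b and Ppard were the levels the larger part, with 32.9 CPM beside 18.9 CPM from the shares for Ppargc1b and -8.62 beside -2.99 CPM for Ppard. At the Ctrl mix of classes the log2 ratios were 0.38 for Ppargc1b, 0.23 for Esrrg, 0.14 for Ppara, 0.14 for Esrra, -0.048 for Ppargc1a, -0.11 for Esrrb and -0.40 for Pparg, whose ratio over all myonuclei had an interval that held 0. The remaining 22.9 CPM of Esrrg summed parts of both signs. Myh4, mixed and unassigned nuclei gave 112, 43.8 and 152 CPM, and Myh1, Myh2 and Myh7 nuclei gave -54.8, -90.4 and -140 CPM. Unassigned nuclei, with too few myosin UMIs, were at 975 and 2190 CPM of Esrrg (log2 ratio 1.17, 1.05 to 1.29). They are not of 1 fibre type. Their main cluster was cluster 0 in Ctrl (42.8%) and the type I-like cluster 2 in cKO (46.1%). Their Myh7 level was 12.7 CPM in Ctrl and 154 in cKO, and the part of their fibre mix was not tested.

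**Figure D3:**
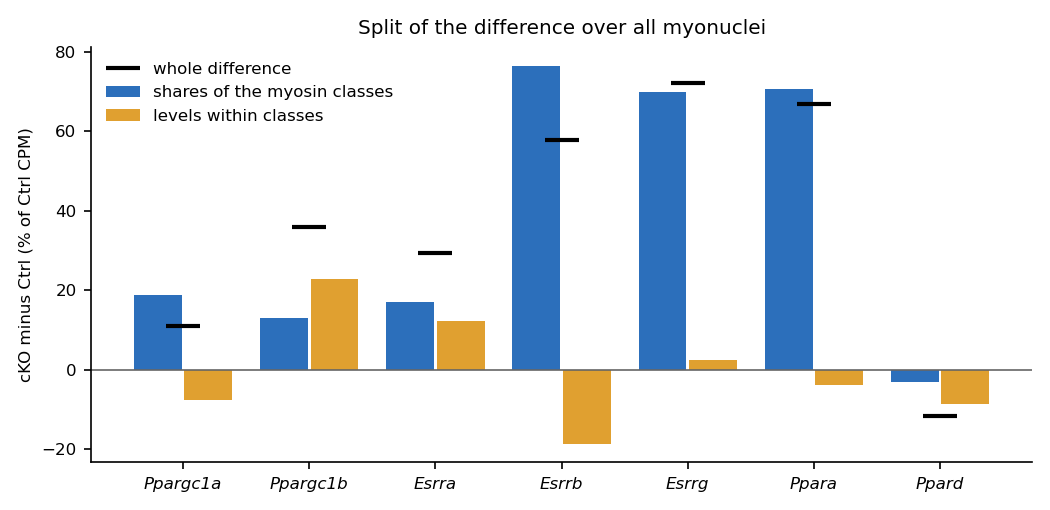
Difference in CPM between cKO and Ctrl myonuclei as a percent of the Ctrl level (y axis) for 7 regulators, split into the part from the shares of the main-myosin classes (blue) and the part from levels within classes (orange), with the whole difference as a black line. For Esrrb, Esrrg and Ppara the class shares gave 76.5%, 69.8% and 70.6% of the Ctrl level, and the levels -18.5%, 2.39% and -3.71%.

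Over the 8 combinations of main myosin and library, log2(CPM + 1) of Esrrb, Esrrg and Ppara ran closely together, with Pearson's r of 0.98 between Esrrb and Esrrg, 0.99 between Esrrb and Ppara and 0.98 between Esrrg and Ppara. Ppargc1a correlated less with them (0.59, 0.52 and 0.63) and more with Esrra (0.75). Ppard was negatively correlated with Esrrg (-0.64). The 8 points share their libraries and the Ctrl Myh7 point is thin, so these values are a description. Among 5036 genes the pattern of Esrrg was nearest to Lrrc2 (0.99), Mapkapk2 (0.99) and Lrrc52 (0.99). That of Ppara was nearest to Esrrb, Lrrc2 and Atp1b1, and that of Esrrb to Ppara, Fabp3, a fatty acid carrier of oxidative muscle, and Mapkapk2. Ppargc1a was nearest to Plbd1 (0.97), Pdpr (0.97), a regulator of pyruvate dehydrogenase phosphatase, and Ndufb5 (0.96), a complex I subunit. Ppargc1b was nearest to Neb, Tomm20 and Smtnl1, Esrra to Bnip3, Adprhl1 and Atxn2, and Ppard to Gm16271, Atp11b and Yaf2.

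Outside the fibres Pparg stood apart from the other 7 genes. It had 55.5 CPM (Ctrl) and 156 CPM (cKO) in the FAP-like cluster 4, which also held tenocyte and adipocyte markers, and 89.7 and 26.5 CPM in the endothelial-like cluster 5, against 3.56 and 3.85 CPM in myonuclei. The cKO value in cluster 5 was 5 UMIs. In the 8 Ctrl and 8 cKO nuclei outside the fibres with a UMI of the adipocyte genes Adipoq or Plin1, Pparg was at 1221 and 1492 CPM (27 and 31 UMIs). These nuclei gave 27 of the 67 Ctrl and 31 of the 49 cKO UMIs of Pparg outside the fibres. Pparg differed between the libraries in the FAP-like cluster (log2 ratio 1.49, 0.81 to 2.19), and the part of these few nuclei in that was not tested. Myh4, a gene of fibres, was in the FAP-like cluster at 42.9% and 36.9% of its myonuclear level, and the 4 myosins ran from 38.4% to 44.9% in Ctrl and from 24.6% to 44.1% in cKO. Ppargc1a was at 25.6% (19.3 to 33.5) and 43.3% of its myonuclear level, Ppargc1b at 47.4% and 40.9%, Esrra at 66.7% and 42.9%, Esrrg at 35.0% and 26.3%, and Ppara at 42.0% and 52.7%. The part of free fibre RNA in these levels was not tested. Ppard was near its myonuclear level there, at 105% and 85.1%. In the endothelial-like cluster Ppard was at 94.6% and 118%, Esrra at 102% and 33.2%, Ppargc1b at 78.9% and 78.5%, Esrrb at 85.0% and 47.7%, and Ppara at 38.3% and 81.4%, beside myosins of 37.6% to 77.2% in Ctrl and 75.0% to 84.6% in cKO.

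**Figure D4:**
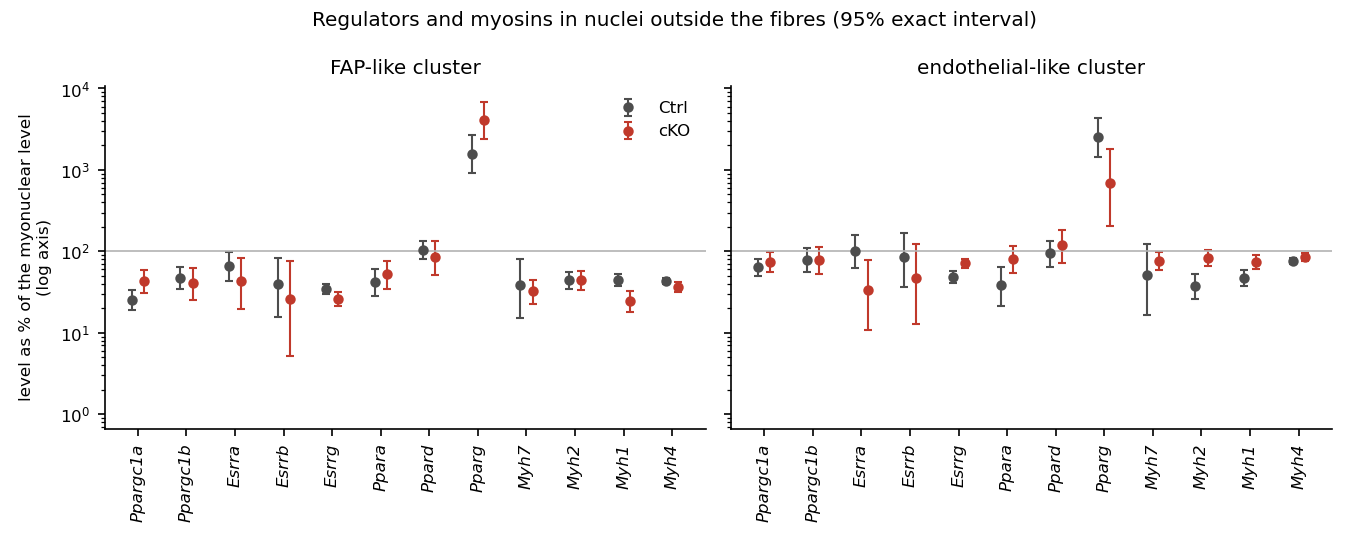
Level of the regulators and of the 4 myosins in the FAP-like and endothelial-like clusters as a percent of the level in myonuclei of the same library (log axis), with Ctrl in grey, cKO in red and 95% exact intervals. Pparg lies between 688% and 4053%, while the myosins lie below 100%.

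Genes that these factors are known to act on were read from 2 lists. Of 36 ERR and PGC-1 targets, mostly genes of the citric acid cycle and respiratory chain, 4 were past 1.5-fold higher and 0 lower over all myonuclei, with a median log2 ratio of 0.08. Of all genes 9.25% were past 1.5-fold higher and 13.4% lower in this comparison, so the 11.1% of targets that were higher is near the background. The highest were Ldhb, the heart-type lactate dehydrogenase subunit (1.26, 0.99 to 1.53), Cox6a2 (1.06, 0.70 to 1.42) and Sdhb (0.62, 0.46 to 0.78), and the lowest were Fndc5 (-0.39, -1.18 to 0.38), Atp5c1 (-0.22, -0.36 to -0.08) and Tfb2m (-0.17, -0.52 to 0.17). Within Myh2 nuclei 1 of 32 was past 1.5-fold higher and 9 lower (median -0.33), beside 10.4% and 19% of all genes (median -0.14). Myh1 nuclei had 1 of 30 higher and 4 lower (median -0.15), beside 10.6% and 15.4% of all genes. Myh4 nuclei had 4 of 34 higher and 1 lower (median 0.10), beside 8.65% and 12.5%.

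Of 18 PPAR targets with enough UMIs, out of 24 listed, 4 were past 1.5-fold higher (22.2%) and 3 lower (16.7%), beside 9.25% and 13.4% of all genes, with a median of 0.14. Their medians within classes were -0.43 in Myh2 nuclei (1 of 15 higher and 5 lower), -0.34 in Myh1 nuclei (0 of 15 and 5) and 0.07 in Myh4 nuclei (2 of 17 and 4). The medians of all genes there were -0.14, -0.08 and -0.04, and their shares past 1.5-fold are those given for the ERR and PGC-1 targets. Pdk4, the kinase that turns off pyruvate dehydrogenase in fasting, had 637 CPM for Ctrl and 141 for cKO (-2.18, -2.28 to -2.08). Ucp3, a mitochondrial carrier induced by fatty acids, was at 239 and 60.3 CPM (-1.99, -2.15 to -1.83) and the lipid droplet gene Plin5 at 6.49 and 2.52 CPM (-1.37, -2.25 to -0.55). The lipase Lpl (0.88, 0.73 to 1.04) and the fatty acid oxidation genes Acadm (0.73, 0.57 to 0.89) and Hadhb (0.65, 0.48 to 0.82) were the highest. Over all myonuclei PPAR targets therefore stood on both sides while Ppara itself was higher in cKO. Its log2 ratio was 0.74 there and 0.14 at the Ctrl mix of classes. Within Myh2, Myh1 and Myh4 nuclei it was -0.58, -0.13 and 0.69, beside the target medians given above.

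Of 19 receptor partners and cofactors, 0 were past 1.5-fold higher and 5 lower (26.3%, beside 13.4% of all genes), with a median of -0.35. Nrip1, a corepressor that opposes PGC-1α, was at 285 and 162 CPM (-0.82, -0.92 to -0.71), the acetyltransferase Kat2a at -0.72 (-1.08 to -0.36) and Hdac3 at -0.64 (-0.92 to -0.36), whereas Rxrb (0.20, -0.28 to 0.68), Med1 (0.10, -0.10 to 0.31) and Ncoa2 (0.03, -0.09 to 0.15) were the highest. Of 21 upstream signals 1 was past 1.5-fold higher (4.76%, all genes 9.25%) and 3 lower (14.3%, all genes 13.4%), with a median of -0.02. Among the genes with at least 50 UMIs, 1 of 19 was lower. Camk2d, a calcium-dependent kinase, was at 255 and 508 CPM (0.99, 0.91 to 1.07), followed by Mef2d (0.53, 0.41 to 0.64) and Fnip1 (0.16, 0.07 to 0.25). Among those 19, Foxo1, a transcription factor of fasting, was the lowest at 574 and 229 CPM (-1.32, -1.41 to -1.24), followed by Mef2a (-0.48, -0.55 to -0.40) and Mapk14 (-0.37, -0.48 to -0.27).

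**Figure D5:**
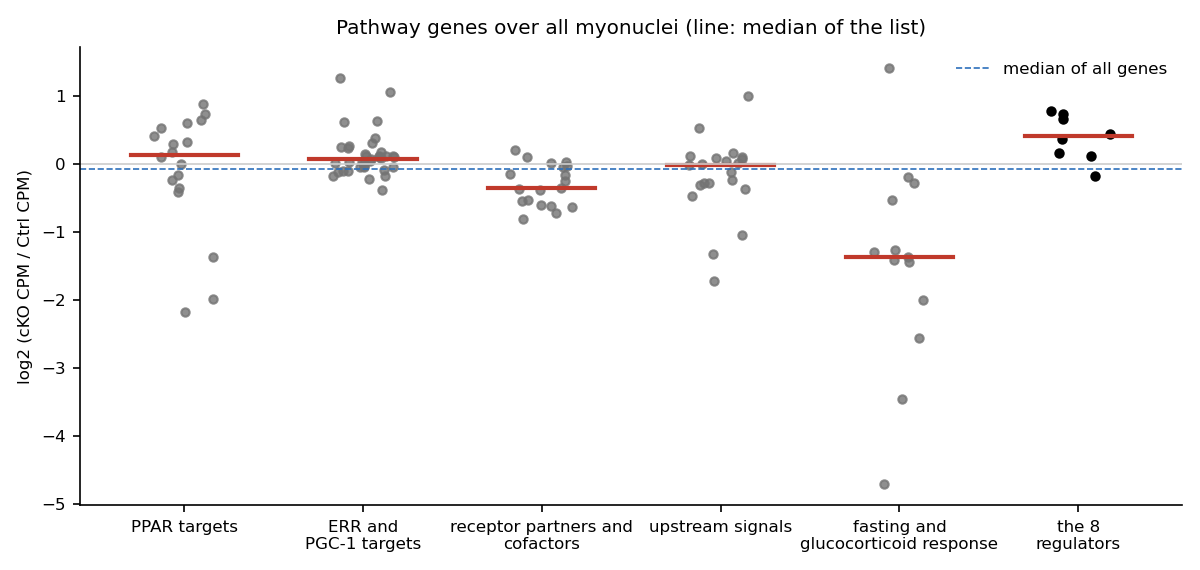
Log2 ratio of cKO over Ctrl over all myonuclei (y axis) for each gene of 5 pathway lists and the 8 regulators (x axis), 1 point a gene with at least 20 UMIs, with red lines at the list medians and a dashed line at the median of all genes. The fasting and glucocorticoid list has its median at -1.37 and the 8 regulators at 0.41.

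Genes of fasting and glucocorticoid response had the lowest median of the 5 lists. Of 13 with enough UMIs, out of 15 listed, 9 were past 1.5-fold lower in cKO (69.2%, beside 13.4% of all genes). Only 1 was higher (7.69%, beside 9.25%), and the median was -1.37. This list, like the others, was chosen with earlier results of these data known. Its shares beside those of all genes are therefore a description only. Fkbp5, a glucocorticoid receptor target, was at 508 and 19.4 CPM (-4.71, -4.97 to -4.46), Arrdc2 at 406 and 36.9 CPM (-3.46, -3.65 to -3.27) and Zbtb16 at 2866 and 1060 CPM (-1.44, -1.47 to -1.40). Irs2 was higher (1.41, 1.24 to 1.58), and Klf15 (-0.19, -0.50 to 0.11) and Per1 (-0.28, -0.59 to 0.03) had intervals that held 0. Fkbp5 was also lower in cKO within Myh4, Myh1 and Myh2 nuclei, at 580 and 27.6, 273 and 12.4, and 181 and 4.39 CPM. It was lower outside the fibres as well, where the gene Net39 should be kept, at 822 and 195 CPM (-2.07, -2.39 to -1.77), with -1.65 in the FAP-like and -3.91 in the endothelial-like cluster. Ppargc1a and Ppara are known to respond to fasting, and so are Pdk4 and Foxo1, but the part of this difference between the libraries in their values was not tested. With 1 library of pooled muscles in each group, it cannot be told apart from the genotype.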

How the data were processed

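Single-nucleus RNA-seq of GP muscle was analysed, with 1 library a group. The submitters' processing notes name Cell Ranger 3.1.0 and mm10, with which the authors counted UMIs per gene. The deposited values are whole UMI counts per gene and barcode, not normalised. Per the methods it was run with default parameters, under which Cell Ranger counts reads on the gene's strand that map to its exons. The annotation release, and whether the reference was built to take in introns, are not given in the sources used here, and the labels and methods name different kit versions (10x 3′).

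Barcodes with at least 100 genes, at least 500 UMIs and at most 10% mitochondrial UMIs were kept. Scrublet (scanpy 1.11.5) called 0 doublets in each library, so the 8% of nuclei with the highest scores were removed, a choice made after seeing the data. Nuclei were clustered with Seurat 5.3.0 (sctransform 0.4.2, 3000 integration features, 25 principal components, resolution 0.3), and myonuclei were all clusters not named as cells outside fibres, including the unnamed clusters 3 and 6. Raw counts were summed per library and class. CPM has an exact Poisson interval, shares a Clopper-Pearson interval and ratios an exact conditional interval (scipy 1.17.1). For medians and counts of genes, genes at 0 on 1 side took the bound that a floor of 3 UMIs per library gives. Counts of 11467 genes over all myonuclei were also simulated as Poisson totals, the model that the ratio intervals assume. The true fold was held by 92% and 96% of intervals for 100 genes each at folds of 0.5 and 2. For 11267 genes at a fold of 1 it was 95.8%. No variation among nuclei or mice and no single class was simulated, so this checks the calculation only.

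The 8 members and 5 gene lists were chosen with earlier results of these data known. Named genes are the members, the 3 highest and 3 lowest of each list with at least 50 UMIs, the 3 genes most alike each member with at least 200 UMIs, Plpp7 and the 4 myosins. The Adipoq, Plin1, Atf3 and class-by-cluster values were chosen after seeing the data.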

Additional observations from a re-analysis of the deposited data

Results flagged for a closer look

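For 3 genes the ratio of cKO over Ctrl had opposite signs in different main-myosin classes, with counting intervals that left out 0 on both sides. Esrrg had a log2 ratio of 0.58 in Myh4 nuclei, and of -0.36 in Myh1, -0.45 in Myh2 and -0.93 in Myh7 nuclei. Ppara had 0.69 in Myh4 nuclei, -0.58 in Myh2 and -0.84 in Myh7 nuclei. Ppargc1b had 0.43 in Myh4 and 0.61 in Myh1 nuclei, and -1.33 in Myh7 nuclei. Not all of these held in every setting. In Myh1 nuclei of cluster 2 the Esrrg ratio was 0.41 (0.13 to 0.69). The Myh4 ratio of Ppara was 0.26 (-0.19 to 0.70) in cluster 0 and 0.08 with the main myosin read after thinning each nucleus to 500 UMIs. The same reading gave Myh7 ratios of 0.22 for Ppara, 0.10 for Esrrg and 0.34 for Ppargc1b. With 1 library a group, the difference between classes was not tested, and the Myh7 values rest on 19 Ctrl nuclei.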

How the results depend on the processing

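The ratios over all myonuclei depended most on the mix of fibre types. At the Ctrl mix of classes the log2 ratio turned to -0.048 for Ppargc1a, -0.11 for Esrrb and -0.40 for Pparg (inside its counting interval) and moved to 0.14 for Esrra, 0.23 for Esrrg and 0.14 for Ppara, and the number of members past 1.5-fold went from 3 to 0. That number stayed at 3 under the other alternatives. A total without Malat1 and the mitochondrial genes gave 0.25 for Ppargc1a and 0.88 for Esrrg. Esrrg was at 0.83 over all nuclei with doublets kept, 0.84 over all nuclei with doublets removed, 0.72 when CPM was averaged over single nuclei, and 0.73 without cluster 6, an alternative added after seeing the data. The cause of the shifts in Esrrg was not tested. Reading the main myosin after thinning to 500 UMIs left 5 Ctrl Myh7 nuclei. It turned the Myh7 ratios of Ppargc1b (0.34), Esrrg (0.10) and Ppara (0.22), and the Ppargc1b ratio of Myh7 over Myh4 nuclei in Ctrl (-0.62), and lowered the Myh4 ratio of Ppara to 0.08. Over these settings, minimum depth and the 80% myosin limit included, 147 ratios of cKO over Ctrl within classes stayed inside their counting interval, 18 left it and the 3 named turned. Between classes 206 stayed, 45 left it and 1 turned. The lower Ppargc1a of Myh2 nuclei ranged from -1.10 to -0.63. Of the shares of nuclei with a UMI, 96 moved with the depth they were thinned to and 32 did not, and the 6 medians over genes changed by less than 0.1 at a minimum of 50 UMIs a gene, where the upstream signals past 1.5-fold lower went from 3 to 1. No paired analysis was possible because each group has 1 library. Leaving out a library was not possible for the same reason. The 19 Ctrl Myh7 nuclei and the few Pparg UMIs in fibres set the limits of depth.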
